A study of Mus musculus with 12 samples.

Results

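Conventional dendritic cell genes were followed in sorted macrophages of the mouse aorta and of fat. The members were 10 genes picked by symbol, Clec9a, Xcr1, Batf3, Itgae, Flt3, Zbtb46, Mycl, Kmo, Ccr7 and Tbc1d4, out of 46517 genes in the count table, and all 10 passed the filter on low counts that kept 14216 genes. They were chosen with earlier results of these data known, so member counts set against all genes are a description only. The cells came from adult C57/BL6 wild type mice and were sorted as viable CD45+, CD64+, MerTK+, CD11b+ and F4/80+ cells, then divided into LYVE-1+ and LYVE-1- cells, where LYVE-1 is a hyaluronan receptor that only some resident macrophages carry. The 4 groups were aorta LYVE1+, aorta LYVE1-, fat LYVE1+ and fat LYVE1-, with 3 libraries each. The aortic cells were pooled from 30 mice and the fat cells from the epididymal and subcutaneous depots of 20 mice. Nothing in the labels states that the 3 libraries were made from different mice, so the p-values measure the spread between these libraries, which may be technical. The question was whether these genes are higher in the sort with the higher class II transcripts, the LYVE1- sort, in both tissues.

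Conventional dendritic cells (cDC) take up antigen in tissues, travel to lymph nodes and present antigen to T cells. They depend on the growth factor receptor FLT3 and differ from most macrophages by the transcription factor ZBTB46, and the cDC1 branch, which cross-presents antigen from dead cells, depends on BATF3 and IRF8. CCR7 guides mature dendritic cells, and also B and T cells, to lymph nodes. Macrophages of the artery wall and of fat share the class II molecules with dendritic cells, and a sort on CD64 and MerTK is meant to hold macrophages. In bulk RNA, fewer cells of a type and less RNA per cell cannot be told apart.

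The 250 bases before the RefSeq start site are shown for 4 members whose RefSeq and GENCODE starts coincide, 3 with negative and 1 with positive log2 fold changes in both tissues. They were taken from the RefSeq promoter table of build GRCm38.p6, which held 8 of the 10 members and not Ccr7 or Itgae. Capitals mark the E-box CACGTG, the only motif of those searched that occurred in these 4 windows.
Clec9a, chr6:129408612-129408861, strand +: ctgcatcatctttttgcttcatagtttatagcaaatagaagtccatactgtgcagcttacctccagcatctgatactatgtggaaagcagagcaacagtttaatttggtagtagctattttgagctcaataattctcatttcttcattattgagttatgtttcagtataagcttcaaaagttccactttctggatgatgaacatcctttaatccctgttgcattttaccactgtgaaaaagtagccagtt
Flt3, chr5:147400490-147400739, strand -: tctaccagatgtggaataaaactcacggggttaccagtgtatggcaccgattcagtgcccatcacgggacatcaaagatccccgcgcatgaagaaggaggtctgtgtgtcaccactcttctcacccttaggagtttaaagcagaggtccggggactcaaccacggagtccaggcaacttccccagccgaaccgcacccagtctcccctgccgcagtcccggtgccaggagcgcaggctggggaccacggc
Xcr1, chr9:123862030-123862279, strand -: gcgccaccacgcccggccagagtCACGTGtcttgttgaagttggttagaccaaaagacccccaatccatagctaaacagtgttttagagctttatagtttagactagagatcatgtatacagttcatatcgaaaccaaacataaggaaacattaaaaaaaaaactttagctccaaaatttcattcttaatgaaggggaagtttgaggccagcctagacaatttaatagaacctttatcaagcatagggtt
Tbc1d4, chr14:101609192-101609441, strand -: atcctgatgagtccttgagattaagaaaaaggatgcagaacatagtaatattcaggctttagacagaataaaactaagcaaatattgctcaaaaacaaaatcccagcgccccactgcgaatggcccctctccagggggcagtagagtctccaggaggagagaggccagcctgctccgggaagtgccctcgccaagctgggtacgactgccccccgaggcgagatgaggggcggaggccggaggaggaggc
The search covered both strands for the AP-1 site TGANTCA, the tandem IRF site GAAA-NN-GAAA, the IRF and ETS composite GGAA-NN-GAAA, which can overlap the tandem site, and CACGTG, which reads the same on both strands. Of the 8 member windows, 2 held CACGTG (Xcr1 and Batf3), against 6.02% of 32851 windows, and 1 held TGANTCA (Zbtb46), against 6.75%. None of the 8 held either IRF motif, which occurred in 2.98% and 2.3% of all windows. These are matches of letters and not measured binding sites.

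Total counts ran from 5049936 to 29792301 per library. Class II transcripts were 9 genes for the antigen-presenting molecules and their loading factors. Their sum was 2103 CPM at the lowest and 3319 CPM at the highest in aorta LYVE1+, and 39097 and 43229 CPM in aorta LYVE1-. Here and below, sums over a whole list are CPM of the library's total counts. Levels of single genes and sums of a few picked genes are CPM of the TMM-scaled library size. In fat LYVE1+ libraries 1, 2 and 3 the sums were 13114, 3273 and 3410 CPM, so library 1 was far above libraries 2 and 3. In fat LYVE1- libraries they lay between 46388 and 51596 CPM. The LYVE1- sort was thus the class II high sort in both tissues. Lyve1 itself had 2741, 2042 and 2803 CPM in aorta LYVE1+ against 876, 1322 and 867 CPM in aorta LYVE1- libraries, and 1493, 2191 and 2094 CPM in fat LYVE1+ against 230, 569 and 610 CPM in fat LYVE1- libraries. It was thus on the labelled side in all 12, with transcripts left in the LYVE1- sort. Lyve1 was called higher in LYVE1+ cells of fat and was not called in the aorta. The gate genes Fcgr1 (CD64), Mertk, Itgam (CD11b) and Adgre1 (F4/80) had counts in all 12 libraries and were not called in either tissue. Ptprc (CD45) was not called in either tissue but was lower in LYVE1+ libraries. It had 456 to 493 against 554 to 891 CPM in the aorta and 431 to 554 against 626 to 718 CPM in fat. Averaged over the tissues, 1 of 7 genes of the gate list was called lower, with -0.488 the lowest log2 fold change. Fat LYVE1+ library 1 and fat LYVE1- library 1 stood apart. They held 25920 and 5271 CPM of 5 erythroid markers, against 1.88 to 1393 CPM in the other libraries, and 281 and 135 CPM of 13 T and NK cell markers, against 24 to 104 CPM. Results that rest on them are given with and without them. Library identifiers in the labels begin with RMM for aorta LYVE1+ libraries 1 and 2 and all fat libraries and with RHH for the other 4, and what the prefix marks is not stated.

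All fold changes compare LYVE1+ with LYVE1- cells in edgeR's quasi-likelihood fit to all 12 libraries. A gene was called where its p, adjusted by Benjamini and Hochberg over 14216 genes, was under 0.05. In the aorta 1 of 10 members was called lower, Clec9a, against 0.429% of all genes called lower. In fat none was called lower, against 2.1% of all genes, and 1 was called higher, Tbc1d4, against 1.82%. At an unadjusted p under 0.05 there were 3 members in the aorta, all lower, and 4 in fat, of which Tbc1d4 was higher. Of the 14216 genes, 1600 in the aorta and 2241 in fat had such a p. The log2 fold change was negative for 9 members in the aorta and 6 in fat, against 51.4% and 49.4% of all genes. Its median over the members was -1.93 in the aorta and -0.76 in fat, against -0.01 and 0.00 over all genes tested. The 3 LYVE1+ libraries all lay below the 3 LYVE1- libraries for 4 members in the aorta and for 3 in fat, against 11.3% and 9.87% of all genes, and above them for 1 in fat, against 9.07%. Clec9a was the only member of which this held in both tissues, as it did for 2.71% of all genes.

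**Figure D1:**
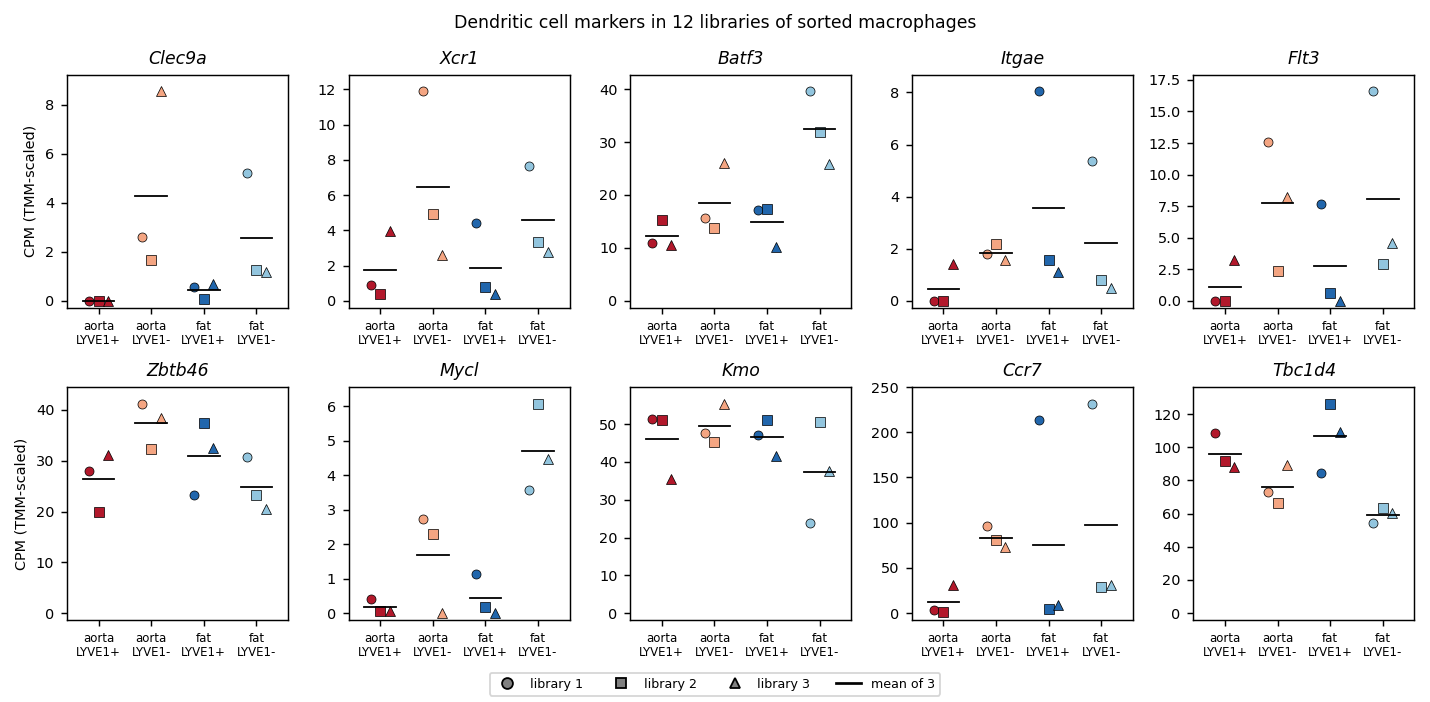
TMM-scaled CPM (y axis, linear from 0) of the 10 members in the 4 groups (x axis), 1 symbol per library and a line at the mean of 3 libraries. Clec9a is at 0 in the 3 aorta LYVE1+ libraries, Tbc1d4 is higher in all fat LYVE1+ than in all fat LYVE1- libraries, and library 1 of both fat sorts is the highest of its group for Ccr7, Flt3, Xcr1 and Itgae.

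The members fell into a low and a high class by their level per exon length. In aorta LYVE1- cells Ccr7 had 42.2 CPM per kilobase of exon, Batf3 11.6, Kmo 10.5, Tbc1d4 9.92 and Zbtb46 4.39. In the same cells Xcr1, Clec9a and Flt3 had 1.45, 1.3 and 1.25 CPM per kilobase, and Mycl and Itgae 0.416 and 0.404. On the same scale the means of Zbtb46, Batf3, Kmo and Tbc1d4 were above 2.9 CPM per kilobase in each of the 4 groups. These 4 transcripts were thus present in the class II low sort as well. The mean of Ccr7 was 6.01 in aorta LYVE1+ and 38.2 in fat LYVE1+ cells, and 1 library of each group carried most of it. LYVE1+ libraries 1, 2 and 3 had 3.91, 1.05 and 30.7 CPM of Ccr7 in the aorta and 213.1, 4.33 and 9.16 CPM in fat.

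Clec9a and Xcr1 encode surface receptors of cDC1, the first for the actin of dead cells and the second for the chemokine XCL1. Clec9a (ENSMUSG00000046080.16, GRCm38 chromosome 6, 129408862 to 129424763, plus strand) had 0 counts in aorta LYVE1+ libraries 1, 2 and 3. Aorta LYVE1- libraries 1, 2 and 3 had 2.6, 1.66 and 8.55 TMM-scaled CPM, from 39, 49 and 141 counts. Taking 3 counts in the whole group for the floor, which covers counting error only, Clec9a was at least 67.4-fold lower in aorta LYVE1+ cells (edgeR adjusted p = 0.0316). This call ended without aorta LYVE1+ library 1 (adjusted p = 0.159), 2 (0.0775) or 3 (0.106) and without aorta LYVE1- library 1 (0.0862) or 3 (0.0984), and with the identifier prefix as a term (0.584), and the sorts did not overlap. In fat the levels of Clec9a were 0.574, 0.0866 and 0.705 CPM in LYVE1+ libraries 1, 2 and 3, from 3, 1 and 7 counts, and 5.23, 1.27 and 1.19 CPM in LYVE1- libraries 1, 2 and 3. The sorts did not overlap in fat either, and the gene was not called there (log2 fold change -2.51, SE 1.01, adjusted p = 0.249), with -1.47 (SE 1.01, adjusted p = 0.583) without fat LYVE1- library 1. Exons of Clec9a share 184 of 3293 bases with other annotated genes, so a small share of its reads depends on how shared bases were counted.

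Xcr1 (ENSMUSG00000060509.4, chromosome 9, 123852315 to 123862029, minus strand) had 0.902, 0.375 and 3.98 CPM in aorta LYVE1+ libraries and 11.9, 4.91 and 2.61 CPM in aorta LYVE1- libraries 1, 2 and 3. Its levels in fat were 4.4, 0.779 and 0.403 CPM in LYVE1+ and 7.66, 3.33 and 2.78 CPM in LYVE1- libraries. The sorts overlapped through 1 LYVE1+ library in each tissue, library 3 in the aorta and library 1 in fat. The log2 fold changes were -1.88 (SE 0.946, adjusted p = 0.488) and -1.39 (SE 0.978, adjusted p = 0.559), with 95% intervals of -3.93 to 0.16 and -3.5 to 0.73. The value in the aorta was -3.29 without LYVE1+ library 3 (SE 1.06, adjusted p = 0.324) and -1.11 without LYVE1- library 1 (SE 1.02, adjusted p = 0.914). The value in fat was -2.92 without LYVE1+ library 1 (SE 1.04, adjusted p = 0.116), -0.81 without LYVE1- library 1 (SE 1.06, adjusted p = 0.806) and -2.34 without both (SE 1.04, adjusted p = 0.25).

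Flt3, the receptor for the dendritic cell growth factor FLT3 ligand, had the same outlying LYVE1+ libraries. Flt3 (ENSMUSG00000042817.15, chromosome 5, 147330741 to 147400489, minus strand) had 0, 0 and 3.2 CPM in aorta LYVE1+ libraries 1, 2 and 3 and 12.6, 2.37 and 8.25 CPM in aorta LYVE1- libraries. Fat libraries had 7.66, 0.606 and 0 CPM in LYVE1+ libraries and 16.6, 2.94 and 4.57 CPM in LYVE1- libraries. Aorta LYVE1+ library 3 and fat LYVE1+ library 1 reached into the range of the LYVE1- sort. The log2 fold change was -2.87 in the aorta (SE 1.56, adjusted p = 0.526) and -1.65 in fat (SE 1.52, adjusted p = 0.678). Without both fat libraries numbered 1 the value in fat was -3.54 (SE 1.76, adjusted p = 0.319). It was -4.62 without fat LYVE1+ library 1 alone (SE 1.8, adjusted p = 0.151) and -0.55 without fat LYVE1- library 1 alone (SE 1.65, adjusted p = 0.934). Without aorta LYVE1+ library 3 the LYVE1+ libraries left in the aorta held no Flt3 count, so no fold is given (adjusted p = 0.237).

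Ccr7, the receptor for lymph node homing, spread widely between libraries of a sort. Ccr7 (ENSMUSG00000037944.8, chromosome 11, 99144196 to 99155077, minus strand) had 3.91, 1.05 and 30.7 CPM in aorta LYVE1+ libraries and 96.4, 80.3 and 73.4 CPM in aorta LYVE1- libraries 1, 2 and 3. No aorta library of one sort reached the other sort, with LYVE1+ library 3 nearest. Fat levels were 213.1, 4.33 and 9.16 CPM in LYVE1+ and 231.7, 29.3 and 31.2 CPM in LYVE1- libraries, so that library 1 was far above libraries 2 and 3 in both sorts. The log2 fold change was -2.82 in the aorta (SE 1.35, adjusted p = 0.467, 95% interval -5.75 to 0.11). In fat it was -0.39 (SE 1.26, adjusted p = 0.921, 95% interval -3.12 to 2.34), -2.18 without both fat libraries numbered 1 (SE 0.951, adjusted p = 0.241) and -3.86 without fat LYVE1+ library 1 alone (SE 1.23, adjusted p = 0.0808). It turned positive without fat LYVE1- library 1 (1.29, SE 1.35, adjusted p = 0.748), and without fat LYVE1+ library 2 (0.16) or 3 (0.13). In the aorta it was -5 without LYVE1+ library 3 (SE 1.67, adjusted p = 0.332), where the sort coincides with the identifier prefix.

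Itgae, the CD103 integrin chain that binds E-cadherin and marks cDC1 of many tissues and T cells of epithelia, was near the limit of detection. Itgae (ENSMUSG00000005947.10, chromosome 11, 73090583 to 73147446, plus strand) had 0, 0 and 1.42 CPM in aorta LYVE1+ libraries and 1.8, 2.17 and 1.58 CPM in aorta LYVE1- libraries 1, 2 and 3. Its fat levels were 8.04, 1.56 and 1.11 CPM in LYVE1+ and 5.36, 0.784 and 0.497 CPM in LYVE1- libraries. The sorts did not overlap in the aorta and overlapped in fat, where library 1 was highest in both. The log2 fold change was -1.98 in the aorta (SE 1.38, adjusted p = 0.635) and 0.67 in fat (SE 1.32, adjusted p = 0.867). Without fat LYVE1+ library 1 the value in fat was -0.71 (SE 1.45, adjusted p = 0.827), without fat LYVE1- library 1 it was 2.43 (SE 1.54, adjusted p = 0.539) and without both 1.05 (SE 1.49, adjusted p = 0.79). Without aorta LYVE1+ library 3 the other LYVE1+ libraries of the aorta held no count, so no fold is given (adjusted p = 0.214).

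Some markers of B cells were high in the libraries where Ccr7, Flt3 and Itgae were high, and others were not. The summed level of 7 B cell markers was 736 to 1042 CPM in aorta LYVE1+, 724 to 1002 in aorta LYVE1-, 901 to 1409 in fat LYVE1+ and 606 to 709 CPM in fat LYVE1- libraries. Ighm made up most of it in every group and had at least 399 CPM in every library. Ighm was lowest of its group in aorta LYVE1+ library 3 (652 CPM), fat LYVE1+ library 1 (830 CPM) and fat LYVE1- library 1 (399 CPM), and the sum of 7 was lowest of its group in the first (736 CPM) and the last of these (606 CPM) and highest of its group in fat LYVE1+ library 1 (1409 CPM). Of the other markers, Ms4a1, Cd79a and Pax5, picked after their values were seen, summed to 4.11, 0.0751 and 38.6 CPM in aorta LYVE1+ libraries 1, 2 and 3, where Ms4a1 and Pax5 were at 0 in library 2. They summed to 62.4, 55.5 and 6.55 CPM in aorta LYVE1- libraries, to 246, 8.83 and 9.87 CPM in fat LYVE1+ libraries and to 77.9, 10.6 and 10.5 CPM in fat LYVE1- libraries. Aorta LYVE1+ library 3 and fat library 1 of both sorts, where Ccr7, Flt3 and Itgae were high for their group, were thus the highest of their groups for this sum of 3 markers too. The T cell genes Cd3e, Cd3d, Cd3g and Trac were also highest there, with 16, 90.6 and 33.7 CPM against 0.882 to 3.86 CPM in the other 9 libraries. They are a part of the 13 T and NK cell markers. The sum of all 13 was 281 and 135 CPM in fat library 1 of LYVE1+ and LYVE1-. In aorta LYVE1+ library 3 it was 91.2 CPM, the highest of its group, but below aorta LYVE1- library 3 (104 CPM). Cd4 had 46.5 CPM in aorta LYVE1+ library 3 and 59.6 to 83.6 CPM in aorta LYVE1- libraries. Aorta LYVE1- library 3, with 73.4 CPM of Ccr7, had the lowest sum of the 3 markers and the highest sum of the 7 markers of its group (1002 CPM). The part of B and T cells in the values of these members was not tested.

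Genes of other cell types were read in the same libraries. Ccr2, the chemokine receptor of monocytes and monocyte-derived cells, was the only called gene of 10 tested monocyte genes. It had 8.02, 14.8 and 8.95 CPM in aorta LYVE1+ against 268.7, 131.6 and 269.3 CPM in aorta LYVE1- libraries, and 147, 43.4 and 44.1 CPM in fat LYVE1+ against 723.4, 647.8 and 636.3 CPM in fat LYVE1- libraries. Ccr2 was 21.2-fold lower in aorta LYVE1+ cells (adjusted p = 0.00198) and 8.63-fold lower in fat LYVE1+ cells (adjusted p = 0.00237). The sum of 7 mast cell markers was 2.7 to 15.2 CPM in aorta LYVE1+ and 48.6 to 72.8 CPM in aorta LYVE1- cells. In fat it was 43.4, 14.5 and 2.23 CPM in LYVE1+ and 4.53, 8.92 and 8.6 CPM in LYVE1- libraries 1, 2 and 3, and the median log2 fold change of the 5 tested markers was -3.06 in the aorta and 1.41 in fat. Prg2, an eosinophil granule protein, was at 0 in all aorta LYVE1+ libraries and at 5.82 to 14.6 CPM in aorta LYVE1- libraries (adjusted p = 0.0137). None of the tested B, T and NK, mast, erythroid, fibroblast, smooth muscle or adipocyte markers was called in either tissue, no neutrophil marker passed the filter, and of the endothelial markers Prox1 was higher in fat LYVE1+ cells (adjusted p = 0.0138). The part of these cells in the values of the members was not tested.

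**Figure D2:**
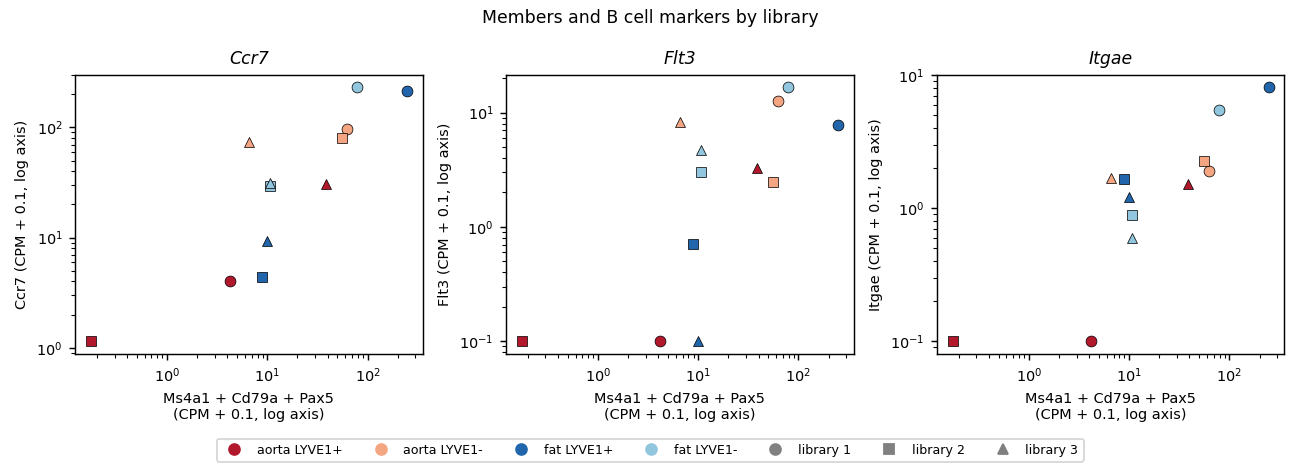
Level of Ccr7, Flt3 and Itgae (y axis, CPM + 0.1, log scale) against the summed level of Ms4a1, Cd79a and Pax5 (x axis, CPM + 0.1, log scale), 1 symbol per library, coloured by group. Fat library 1 of both sorts lies farthest to the right in each panel, and aorta LYVE1+ library 3 lies above and to the right of the other 2 aorta LYVE1+ libraries.

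Among the transcription factors, Mycl and Batf3 had negative values in both tissues and Zbtb46 did not. Mycl encodes L-MYC, the MYC family member used by dendritic cells. Mycl (ENSMUSG00000028654.12, chromosome 4, 122995652 to 123002485, plus strand) had 0.401, 0.0751 and 0.0711 CPM in aorta LYVE1+ libraries, from 8, 1 and 1 counts, and 2.74, 2.3 and 0 CPM in aorta LYVE1- libraries 1, 2 and 3. In fat it had 1.15, 0.173 and 0 CPM in LYVE1+ and 3.57, 6.08 and 4.47 CPM in LYVE1- libraries, which did not overlap. Aorta LYVE1- library 3, which had no count, overlapped the LYVE1+ libraries. The log2 fold changes were -3.07 in the aorta (SE 1.36, adjusted p = 0.416) and -3.61 in fat (SE 1.42, adjusted p = 0.217), and neither was called. Without fat LYVE1+ library 1 the value in fat was -5.57 (SE 1.7, adjusted p = 0.0702), and without both fat libraries numbered 1 it was -5.73 (SE 1.77, adjusted p = 0.0828).

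Batf3, a partner of JUN and IRF8 on DNA, was present at similar order in all groups. Batf3 (ENSMUSG00000026630.8, chromosome 1, 191097847 to 191108945, plus strand) had 10.9, 15.3 and 10.5 CPM in aorta LYVE1+ and 15.7, 13.8 and 26 CPM in aorta LYVE1- libraries 1, 2 and 3. The fat levels were 17.2, 17.4 and 10.2 CPM in LYVE1+ and 39.6, 32 and 25.8 CPM in LYVE1- libraries. The sorts overlapped in the aorta and did not overlap in fat. The log2 fold change was -0.59 in the aorta (SE 0.291, adjusted p = 0.481) and -1.12 in fat (SE 0.296, adjusted p = 0.0559). With the library number as a block the value in fat was -1.13 (SE 0.269) and passed the threshold (adjusted p = 0.0358). So did 3.3% of all genes in the lower direction. The fat libraries numbered 2 and 3 were not shown to be paired. DESeq2 also called Batf3 in fat (adjusted p = 0.011), against 3.7%. In the average over tissues Batf3 fell by 0.86 on the log2 scale (SE 0.208, adjusted p = 0.0278). That call ended without aorta LYVE1+ library 1 (0.0706) or 3 (0.0658), aorta LYVE1- library 3 (0.0629), fat LYVE1+ library 3 (0.0672) or fat LYVE1- library 1 (0.0606).

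Zbtb46 (ENSMUSG00000027583.12, chromosome 2, 181387762 to 181459426, minus strand), a repressor expressed in committed cDC, had 28.1, 19.9 and 31.1 CPM in aorta LYVE1+ and 41.3, 32.4 and 38.4 CPM in aorta LYVE1- libraries 1, 2 and 3. In fat it had 23.2, 37.4 and 32.4 CPM in LYVE1+ and 30.8, 23.3 and 20.5 CPM in LYVE1- libraries. The sorts were apart in the aorta, with LYVE1- higher, and overlapped in fat, where 2 of 3 LYVE1+ libraries were above every LYVE1- library. The log2 fold changes were -0.5 (SE 0.225, adjusted p = 0.423) in the aorta and 0.33 (SE 0.229, adjusted p = 0.555) in fat. Their difference, aorta minus fat, was -0.83 (SE 0.321, adjusted p = 0.733).

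Neither Kmo nor Tbc1d4 was called lower in LYVE1+ cells. Kmo (ENSMUSG00000039783.14, chromosome 1, 175620381 to 175662116, plus strand), the kynurenine hydroxylase of tryptophan breakdown at the outer mitochondrial membrane, had 51.5, 51.1 and 35.5 CPM in aorta LYVE1+ and 47.6, 45.4 and 55.4 CPM in aorta LYVE1- libraries 1, 2 and 3. In fat it had 47.1, 51 and 41.6 CPM in LYVE1+ and 23.9, 50.5 and 37.7 CPM in LYVE1- libraries. The sorts overlapped in both tissues, and the log2 fold changes were -0.1 (95% interval -0.61 to 0.4) and 0.32 (95% interval -0.2 to 0.83). The gene of Kmo overlaps Fh1 on the opposite strand without shared exon bases.

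Tbc1d4 (ENSMUSG00000033083.15, chromosome 14, 101442360 to 101609191, minus strand), a RAB GTPase-activating protein of insulin-driven glucose transporter traffic, had 108.6, 91.4 and 88.3 CPM in aorta LYVE1+ and 72.9, 66.2 and 89.3 CPM in aorta LYVE1- libraries 1, 2 and 3. In fat it had 84.6, 126.3 and 109.2 CPM in LYVE1+ and 54.4, 63.6 and 60.1 CPM in LYVE1- libraries, so the sorts did not overlap and LYVE1+ was the higher. Tbc1d4 was 1.8-fold higher in fat LYVE1+ cells (adjusted p = 0.014, log2 fold change 0.85, SE 0.17). In the aorta the log2 fold change was 0.34 (SE 0.167, adjusted p = 0.485), with the sorts overlapping through LYVE1- library 3. The call in fat ended without fat LYVE1+ library 2 (adjusted p = 0.0802) or 3 (0.0629) or fat LYVE1- library 3 (0.0502), and when the aortic libraries were left out of the fit (0.08).

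**Figure D3:**
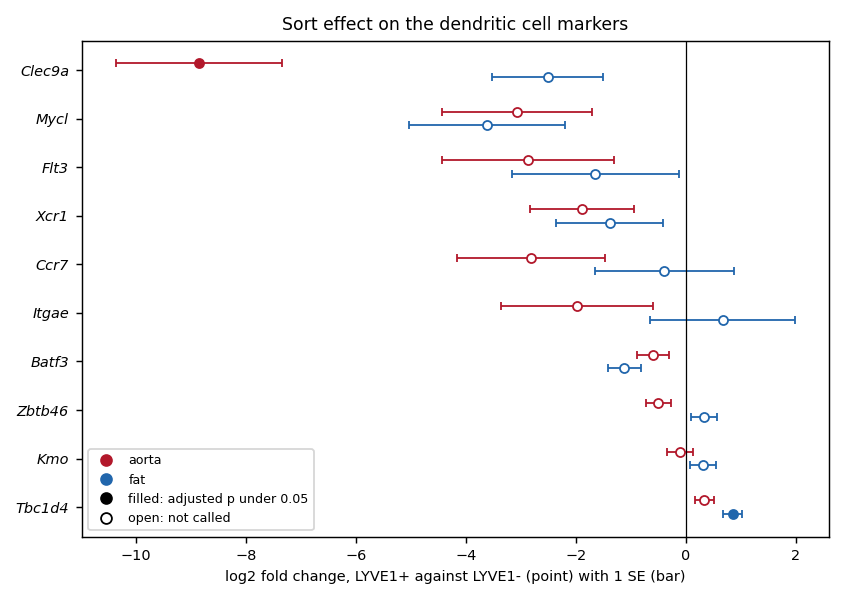
Log2 fold change of LYVE1+ against LYVE1- cells (x axis) with 1 SE for the 10 members (y axis), in the aorta (red) and in fat (blue), filled where the adjusted p was under 0.05. Clec9a in the aorta and Tbc1d4 in fat are filled, and the point of Clec9a in the aorta is a fitted value against a group with no counts, which is not a bound.

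Averaged over the tissues, 3 members were called, against 6.34% of all genes. Clec9a and Batf3 were lower in LYVE1+ cells and Tbc1d4 was higher (adjusted p = 0.0111, log2 fold change 0.59, SE 0.119). Clec9a had adjusted p = 0.00478, and Mycl, at -3.34 (SE 0.983), did not pass (adjusted p = 0.0639). Without fat LYVE1+ library 1 there were 7 members called, with Ccr7, Flt3, Mycl and Xcr1 added, against 11.8% of all genes. Without both fat libraries numbered 1 there were 5, with Ccr7 and Mycl added, against 11.2%. With the library number as a block there were 5, with Ccr7 and Flt3 added, against 10.3%. With the identifier prefix as a term there were 0, against 1.96%, where the adjusted p was 0.0711 for Clec9a, 0.108 for Batf3 and 0.0959 for Tbc1d4. No member was called in the difference of the sort effect between tissues, where 0.155% of genes were, and the smallest adjusted p of a member was 0.443 (Clec9a). By unadjusted p under 0.05 there were 2, Clec9a and Zbtb46, against 862 of 14216 genes, and DESeq2 called none.

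Aorta and fat were also compared within each sort. No member was called between aorta LYVE1- and fat LYVE1- cells, where 2.48% of all genes were, and the smallest adjusted p was 0.18, for Batf3 (log2 fold change -0.81, SE 0.29). Without both fat libraries numbered 1, Zbtb46 was called there, against 7.25% of all genes. Between aorta LYVE1+ and fat LYVE1+ cells no member was called either, against 3% of all genes, with Clec9a nearest (adjusted p = 0.0996), and DESeq2 called Clec9a, against 6.51% of all genes. At an unadjusted p under 0.05 there were 2 members in the first and 1 in the second of these comparisons, against 2155 and 2172 of 14216 genes.

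The wider dendritic cell program was read from lists of its known genes. Of all genes tested 0.429% were called lower in the aorta and 2.1% in fat, and 0.113% and 1.82% were called higher. Of 20 other genes shared by cDC, 2 were lower in LYVE1+ cells in the aorta and 2 in fat, with medians of -1.81 and -0.88. They were Slamf7, a receptor of the SLAM family, and Ciita, the transactivator of class II genes, in both tissues. Slamf7 was 3.59-fold lower in the aorta, at 31.4 ± 6.32 against 113 ± 9.61 CPM (mean ± SD, n = 3, edgeR adjusted p = 0.0232), and 4.37-fold lower in fat (adjusted p = 0.00323). Of 17 other cDC1 genes, 1 was lower in the aorta and 2 in fat, with medians of -0.57 and -0.02. Cadm1, an adhesion molecule of cDC1, was lower in both, with 3.01 ± 1.05 against 30.5 ± 17.8 CPM in the aorta (adjusted p = 0.0232) and 2.33 ± 2.32 against 13.2 ± 1.9 CPM in fat (adjusted p = 0.0288). Id2, a repressor needed for cDC1, was lower in fat by 2.18-fold (adjusted p = 0.0187), and Irf8, the partner of BATF3, was not called (log2 fold change -0.57 in the aorta and -0.02 in fat).

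Mature dendritic cell genes gave 2 lower genes of 24 in the aorta and 3 in fat, with medians of -0.79 and -0.68 and none higher. Ccl22, a chemokine for regulatory T cells, had 0.438 ± 0.38 against 15.4 ± 5.92 CPM in the aorta (adjusted p = 0.0316) and 0.319 ± 0.553 against 17.9 ± 9.13 CPM in fat (adjusted p = 0.00635). Il12b, a subunit of IL-12, had 0.0237 ± 0.041 against 7.07 ± 3.4 CPM in the aorta (adjusted p = 0.00741), and in fat no counts in LYVE1+ libraries against 2.11 ± 1.27 CPM (adjusted p = 0.0085). Cd83, a surface protein of activated antigen-presenting cells, was 2.51-fold lower in fat (adjusted p = 0.00129) and was not called in the aorta. Of the 9 class II genes 6 were lower in each tissue, such as H2-DMb1, H2-DMa and Cd74, with medians of -3.19 and -2.51.

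Of 13 cDC2 genes none was called in the aorta and 2 were higher in fat LYVE1+ cells, Clec10a (2.3-fold, adjusted p = 0.0206) and Cd209a (1.65-fold, adjusted p = 0.0301), both C-type lectins that macrophages also express, and the medians were -0.22 and 0.37. Of 10 plasmacytoid genes none was called in the aorta and 2 were higher in fat LYVE1+ cells, the lectin Siglech (3.24-fold, adjusted p = 0.000789) and the transcription factor Tcf4 (1.51-fold, adjusted p = 0.0462), with medians of -0.58 and 0.81. Cd209a has close paralogs, so its counts are uncertain where reads match several of them.

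**Figure D4:**
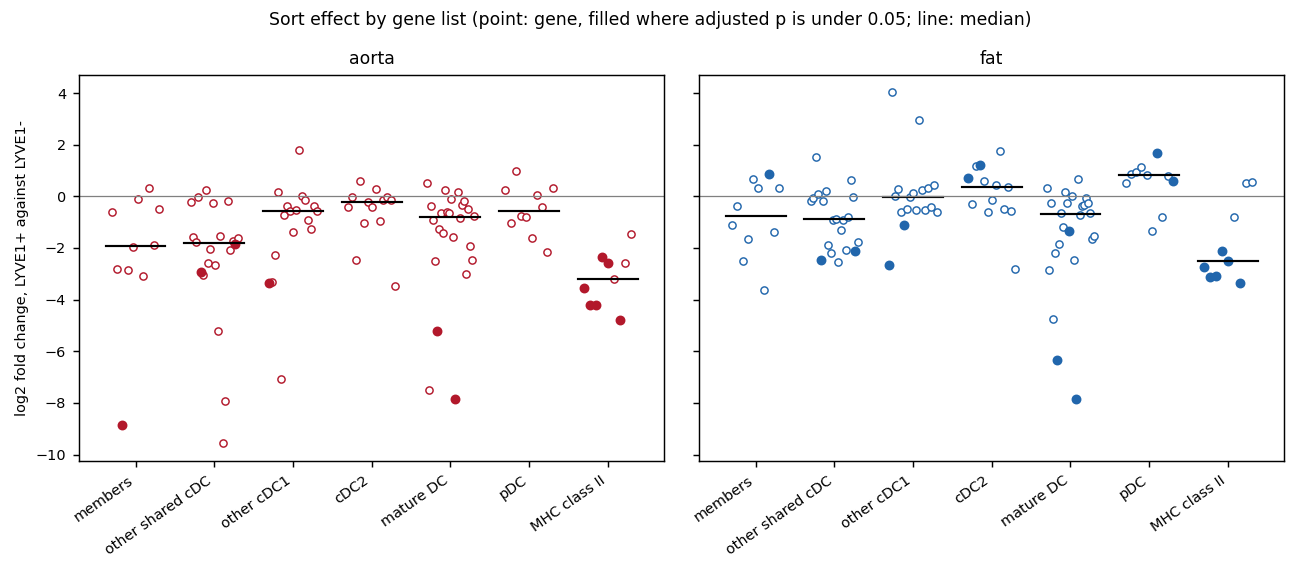
Log2 fold change of LYVE1+ against LYVE1- cells (y axis) for the tested genes of 7 lists (x axis) in the aorta (left) and in fat (right), filled where the adjusted p was under 0.05, with a line at the median of each list. The class II list has the lowest median in both tissues, and the members and mature genes spread from clearly negative values to values near or above 0.

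Of 13 tested ligands and partners of the members none was called in either tissue and 1 was called in the average, against 6.34% of all genes. In each tissue 9 of the 13 values were negative, with medians of -0.24 in the aorta and -0.14 in fat. Of all genes 51.4% were negative in the aorta and 49.4% in fat. The called gene was Ccl21a, a CCR7 ligand, which was 10.3-fold higher in LYVE1+ cells in the average (adjusted p = 0.0154). It had 6.56, 18.2 and 5.69 CPM in aorta LYVE1+ against 0.334, 1.22 and 1.76 CPM in aorta LYVE1- libraries, and 5.74, 0.26 and 1.01 CPM in fat LYVE1+ against 0.255, 0.098 and 0.199 CPM in fat LYVE1- libraries, so that the sorts did not overlap in either tissue. Ccl21a has near-identical copies, so its counts are uncertain. Xcl1 (the XCR1 ligand), Ccl19 (a CCR7 ligand), Cdh1 (E-cadherin, the Itgae ligand) and Ido1 (the enzyme that opens the kynurenine pathway) were below the filter on low counts. Itgb7, the chain that pairs with Itgae, had 7.06 to 21 CPM in aorta LYVE1+ and 20 to 40.7 CPM in aorta LYVE1- cells and was highest in the fat libraries numbered 1, at 138.8 and 118 CPM. Haao, the enzyme after Kmo and kynureninase in the same pathway, had 0.1 to 0.924 CPM in aorta LYVE1+ and 2.61 to 4.54 CPM in aorta LYVE1- libraries (log2 fold change -2.65, adjusted p = 0.412).

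The members did not share 1 pattern over the 12 libraries. Pearson's r of log2 CPM, given as a description over libraries that share their group and tissue, was 0.917 for Xcr1 with Flt3 and 0.904 for Flt3 with Ccr7. It was 0.841 for Ccr7 with Itgae, -0.826 for Tbc1d4 with Mycl and 0.0372 for Zbtb46 with Kmo. With the summed class II level, r was 0.869 for Clec9a, 0.799 for Flt3, 0.751 for Ccr7, 0.746 for Xcr1, 0.739 for Mycl and 0.734 for Batf3. It was 0.467 for Itgae, 0.0426 for Zbtb46, -0.218 for Kmo and -0.849 for Tbc1d4. Among the members with a mean of at least 5 CPM, the 3 tested genes most like Ccr7 were Nup210, Siglecg and P2ry10 (r = 0.974, 0.965 and 0.953). Those most like Tbc1d4 were Arhgef3, Slc8b1 and 2810025M15Rik (0.936, 0.934 and 0.934), those most like Batf3 were Dolpp1, Ank and Abcg3 (0.926, 0.916 and 0.916), those most like Kmo were Ahrr, Pcmt1 and Pml (0.952, 0.925 and 0.918), and those most like Zbtb46 were Gm10644, Rnf149 and Nr1d2 (0.928, 0.865 and 0.839).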

How the data were processed

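RNA of sorted macrophages was made into libraries by the full-length, unstranded Smart-seq2 protocol, per the labels' protocols. The deposited table holds raw read counts, whole numbers per Ensembl gene in 12 libraries. Per the submitters' processing notes, the build was GRCm38 and the tools included featureCounts 1.5.0, STAR 2.5.2b and edgeR 3.14.0. Filters, strand setting, gene annotation and the handling of reads with several matches are not given in the sources used here. The deposited log2 table of the same libraries was not used.

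Symbols and coordinates came from GENCODE M21 by Ensembl identifier, and 46005 of 46517 genes had a symbol. Counts were fitted with edgeR 4.0.16 in R 4.3.3 (1 mean per group, TMM factors, edgeR's filter on low counts, 8 residual degrees of freedom). The SE is the log2 fold change divided by the square root of F. Tests were two-sided. The fit was checked on simulated counts. The members and gene lists were chosen with earlier results of these data known. All members were named, and from each list up to 3 called genes with the smallest adjusted p in either tissue, or the 2 most abundant, could be named; partner genes were named beside their member. Outside this rule, the gate genes were named, and so were the T cell genes Cd3e, Cd3d, Cd3g and Trac. The B cell genes Ms4a1, Cd79a and Pax5 were also outside it and were picked after their values were seen. Flt3l, on the partner list, had no match. A gene of the B cell list is not reported here.

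Library numbers were checked for pairing by the correlation of same-numbered deviations from the group means. It was 0.486, 0.279 and 0.184 in fat and -0.0441, -0.0767 and -0.17 in the aorta, where the numbers thus showed no pairing. In fat, differently numbered libraries gave 0.192 (LYVE1+ 2 with LYVE1- 3) and 0.225 (LYVE1+ 3 with LYVE1- 2). Those with 1 library numbered 1 gave -0.366 to -0.269. The check sets the fat libraries numbered 1 apart and cannot show that those numbered 2 and 3 are paired. No 2 libraries held identical counts. Alternatives were DESeq2 1.42.0, other scalings, no filter, fewer groups, a replicate block, the library identifier's prefix and leaving out libraries.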

Additional observations from a re-analysis of the deposited data

How the results depend on the processing

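Scaling by DESeq2 size factors or by plain library size changed no sign or call of a member in either tissue, in the average or in the difference between tissues. Values below are numbers of genes called, unless members are named, for the aorta (77), fat (558), the average (901), the difference between tissues (22), LYVE1- aorta against fat (353) and LYVE1+ aorta against fat (426). DESeq2 gave 360, 1005, 1538, 103, 847 and 922, with 2 members in fat (Batf3 added) and 1 in LYVE1+ aorta against fat. It gave no adjusted p for Ccr7 in either tissue. Without the filter 25331 genes were tested. There were then 336 in the aorta, 1245 in the average, 72 in the difference, and 647 and 820 between tissues. In fat 818 of the 14216 genes of the main fit were called. Members called were 2 in the aorta (Ccr7 added), 2 in fat, 5 in the average and 2 in LYVE1+ aorta against fat. With only the groups compared there were 276 in the aorta, 175 in fat with 0 members, and 216 in LYVE1+ aorta against fat. With the replicate block there were 243, 915, 1470 and, in LYVE1- aorta against fat, 538, with 2 members in fat and 5 in the average; the numbers share no pairing in the aorta. The block changed no other call of a member.

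The prefix of the library identifiers is RMM for aorta LYVE1+ libraries 1 and 2 and all fat libraries, and RHH for the others, so in the aorta it nearly follows the sort. With the prefix as a term there were 2 in the aorta, 278 in the average, 0 in the difference, 7 and 181 between tissues, with 0 members in the aorta and 0 in the average. Clec9a in the aorta then had adjusted p = 0.584. In the average Xcr1 was -1.04, Flt3 -1.46 and Ccr7 -0.92 with the term, against -1.64, -2.26 and -1.6 in the main fit. Batf3 (-0.97) and Mycl (-4.01) were more negative with the term. The prefix varied only within aorta LYVE1+, where Clec9a had no counts. Its fitted value (-5.685) could thus not move with the term, and that it stayed says nothing on the prefix. Signs turned for values that were not called: in the average Zbtb46 0.0309, Itgae 0.145 and Kmo -0.0825, and in the difference Xcr1 0.69, Flt3 0.38 and Mycl -0.79. Without both fat libraries numbered 1 there were 570, 898, 1589, 86, 1030 and 899, with 5 members in the average and 1 in LYVE1- aorta against fat, and turned signs for Zbtb46 0.0855 and Kmo -0.0167 in the average and Xcr1 0.46 and Flt3 0.66 in the difference.

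Leaving out each library in turn gave 20 to 213 in the aorta with 0 to 1 members, 224 to 1036 in fat with 0 to 2 members, 510 to 1671 in the average with 2 to 7 members, 0 to 49 in the difference, 104 to 542 in LYVE1- aorta against fat and 179 to 550 in LYVE1+ aorta against fat. Ranges that crossed 0 were -0.195 to 0.0509 for Kmo in the aorta, -3.86 to 1.29 for Ccr7 and -0.71 to 2.43 for Itgae in fat. In the average they were -0.17 to 0.0034 for Zbtb46, -3.49 to 0.23 for Itgae and -0.0127 to 0.244 for Kmo, and in the difference -1.91 to 1.04 for Xcr1, -8.06 to 1.74 for Flt3, -4.61 to 1.04 for Ccr7 and -0.74 to 2.5 for Mycl. The ends of -8.06 for Flt3 and -3.49 for Itgae came without aorta LYVE1+ library 3. There the aorta LYVE1+ libraries left held no count of either gene, so both are fitted values and not sizes of an effect. In the other fits without 1 library the lowest values were -2.32 for Flt3 in the difference and -1.34 for Itgae in the average. Why the other values moved was not tested. Members under about 5 CPM rest on few counts in most libraries.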
